A study of Mus musculus with 6 samples.

Results

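Elastic fibres are the recoil element of the lung, and 10 genes of their core and their microfibril scaffold were chosen by name, as a family, for description in lung fibroblasts. They were Eln, Fbn1, Fbn2, Fbln1, Fbln2, Fbln5, Efemp1, Efemp2, Mfap4 and Emilin1. 8 of the 10 were measured here, each by 1 probe set, among 22180 genes tested; Fbn1 and Efemp2 were not analysed here. All 8 lay above the median level of the genes tested, so that none was near the low end of the range.

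The cells were primary fibroblasts from the lungs of adult mice of mixed strain with the genotype UBCCreERT/RSmoM2. In these mice the ubiquitin C promoter drives a Cre recombinase that 4-hydroxytamoxifen (4OHT) activates, and the recombined allele makes SmoM2, a constantly active Smoothened. 3 wells received vehicle and 3 received 1 µg/ml 4OHT, RNA was taken at 48 h, and each well gave 1 single-colour array. Both groups carried the alleles, so drug, Cre activity and SmoM2 cannot be told apart. All arrays bear the same genotype number and no label says that wells came from separate animals, so the p-values reflect only how wells varied, which may be technical variation.

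An elastic fibre is a core of crosslinked elastin laid down on a scaffold of fibrillin microfibrils. Fibulins and related glycoproteins bring the soluble elastin precursor, tropoelastin, to that scaffold, and enzymes of the lysyl oxidase family crosslink it. The scaffold also holds latent TGF-beta through its binding proteins. Lung fibroblasts and smooth muscle cells are known makers of these fibres in the walls of airways, vessels and alveoli.

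Within the family, Emilin1 and Fbn2 passed the test as lower and no gene passed as higher. Leaving out any 1 of the 6 arrays ended the Fbn2 call, whereas Emilin1 still passed. Emilin1, a glycoprotein at the interface of elastin and microfibrils, was 1.34-fold lower in 4OHT wells, and Fbn2, which encodes the fibrillin most abundant in developing tissue, was 1.18-fold lower. Eln itself differed by 1.07-fold and did not pass the test, and Fbln2, Efemp1 and Mfap4 differed by 1.01-fold each. Fbln1 was 1.17-fold higher and Fbln5 1.09-fold lower, and neither passed. Across the wider pathway 16 of 55 measured genes fell and 7 rose, where 6.62% of all genes fell and 5.38% rose; the 16 became 9 on dropping either of vehicle replicates 1 and 2, and 10 on dropping either of 4OHT replicates 1 and 2. The lists were chosen with earlier results of these data known, so setting them beside all genes is not a test. The shares of all genes also include dim genes. Among genes with a mean level from 9 to 11, 20.1% were called in either direction. Adamtsl5 lay furthest above vehicle and Tgfb2 furthest below.

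The stretch before the transcription start is shown for Emilin1 and Fbln1, the members with the largest difference in each direction. RefSeq promoters were matched for 5 of the 8 measured members. Both stretches are the 250 bases before an annotated start in GRCm38.p6, on the plus strand, at chr5:30913536-30913785 for Emilin1 and chr15:85205699-85205948 for Fbln1. Capitals mark a match to any of 4 motifs searched on both strands.
Emilin1: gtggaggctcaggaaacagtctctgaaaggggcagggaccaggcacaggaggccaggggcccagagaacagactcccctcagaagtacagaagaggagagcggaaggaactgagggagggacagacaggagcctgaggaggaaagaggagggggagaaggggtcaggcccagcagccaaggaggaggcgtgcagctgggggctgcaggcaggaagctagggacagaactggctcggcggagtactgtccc
Fbln1: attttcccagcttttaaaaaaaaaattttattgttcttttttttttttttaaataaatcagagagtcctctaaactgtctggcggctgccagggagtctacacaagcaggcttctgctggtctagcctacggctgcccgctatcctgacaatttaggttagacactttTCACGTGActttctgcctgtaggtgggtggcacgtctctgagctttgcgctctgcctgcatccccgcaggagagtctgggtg
The motifs were the GLI site GACCACCCA, the core TCACGTGA of the element bound by the lysosomal factors of the TFEB family, the GC box GGGCGG and the TATA box TATAAA. The Fbln1 stretch held 1 match, TCACGTGA, a palindrome that reads the same on both strands. No other match lies in either printed stretch, so none could overlap. The other annotated Fbln1 start lies close by, and its stretch holds the same TCACGTGA and 1 GC box. TCACGTGA occurs in 0.785% of all 32851 RefSeq stretches of this length, GGGCGG in 32.7%, TATAAA in 12.4% and GACCACCCA in 0.225%. The Emilin1 stretch held none of the 4 motifs, which says only that these letters are not in this window.

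The level of each gene is given as log2 expression from the deposited table, in which a difference of 1 is a doubling of signal. Probe sets differ in how strongly they bind, so levels are compared between arrays and not between genes. A gene was called when limma's moderated test gave a Benjamini-Hochberg adjusted p under 0.05 over all 22180 genes. By that rule 12.0% of all genes were called, 5.38% higher and 6.62% lower in 4OHT wells, and 2 of the 8 members were called, both lower. The 8 members had mean levels from 9.75 to 13.75, and at such levels a larger share of genes was called, from 13.8% to 20.6%. The count of members called higher was 0; at an unadjusted p under 0.05, 1 member was higher and 3 were lower, where all genes gave 12.2% higher and 14.2% lower. The median log2 fold change, as 4OHT minus vehicle, was -0.06 over the 8 members and -0.01 over all genes.

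**Figure D1:**
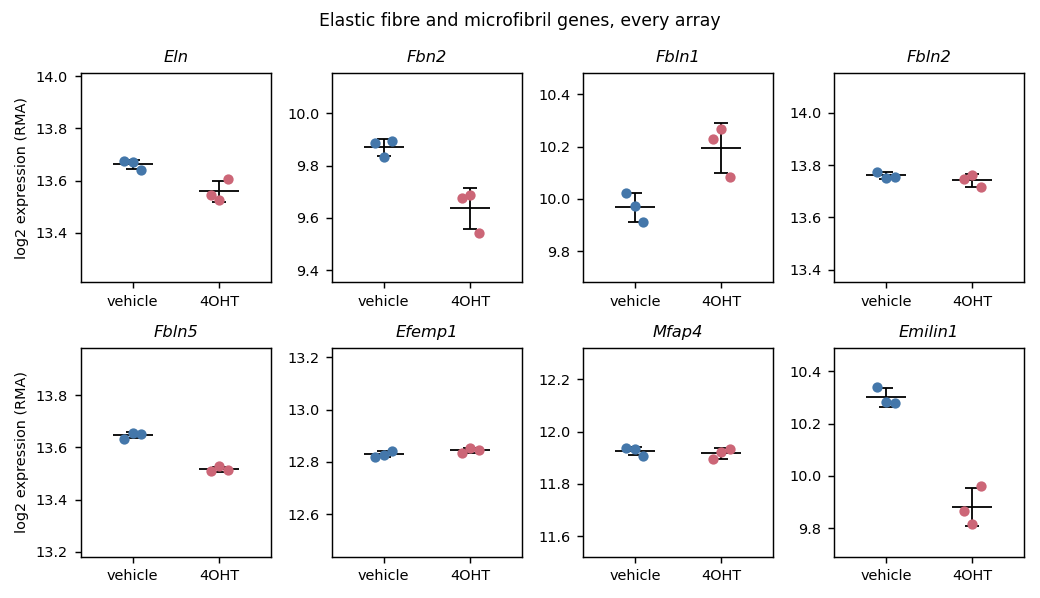
Log2 expression of the 8 measured elastic fibre and microfibril genes in each of 6 arrays (points), with the mean and SD of each group (bars, n = 3); every panel spans the same range of log2 expression. The 4OHT points of Emilin1, Fbn2, Fbln5 and Eln lie below all vehicle points, those of Fbln1 lie above, and those of Fbln2, Efemp1 and Mfap4 overlap them.

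The 6 arrays were alike, with Pearson's r across genes, which are not independent replicates, from 0.997 to 0.998 within groups and from 0.995 to 0.996 between them, and medians from 7.44 to 7.47. Of 10 measured markers of fibroblasts 1 fell, and their mean levels lay between 9.73 and 14.12. Epithelial markers lay between 4.23 and 7.65 with 0 of 8 called (limma; 1 lower at an unadjusted p under 0.05, and none with a trended and robust eBayes), macrophage markers between 5.31 and 8.95 with 1 of 8 higher, endothelial markers between 6.21 and 10.00 with 4 of 8 lower and 2 higher, and mesothelial markers between 7.08 and 12.89 with 3 of 6 lower and 1 higher. Of 12 markers of smooth muscle and pericytes, which also make elastic fibres, 9 fell, where 6.62% of all genes fell and 5.38% rose. Acta2, Tagln and Des did not pass, with log2 fold changes of -0.14, -0.17 and 0.09. The mean log2 level of the 12 ran from 11.72 to 11.74 in vehicle wells and from 11.20 to 11.29 in 4OHT wells. Proliferation markers fell in 8 of 9, from 10.00 to 10.08 in vehicle wells to 8.78 to 8.94. The part of either in the falls of Emilin1, Fbn2 and the microfibril genes was not tested, and in these bulk samples fewer cells of a type and less RNA per cell cannot be told apart.

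Eln encodes tropoelastin, the monomer of the elastic core. Its log2 expression in vehicle wells was 13.67, 13.67 and 13.64, and in 4OHT wells it was 13.55, 13.53 and 13.61. All vehicle values lay above all 4OHT values, with a mean of 13.66 ± 0.02 against 13.56 ± 0.04 (SD, n = 3). The log2 fold change of -0.10 (SE 0.044) did not pass in the limma fit (adjusted p = 0.189). With a spread that may vary with the level (a trended and robust eBayes), it passed (adjusted p = 0.0127). With any 1 array left out it did not pass (limma adjusted p from 0.151 to 0.409).

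Of the fibrillins, which polymerise into the microfibril, Fbn2 was the one measured. Fbn2 had a log2 expression of 9.89, 9.83 and 9.89 in vehicle wells and 9.68, 9.69 and 9.54 in 4OHT wells. The groups did not overlap, and 4OHT replicate 3 was the lowest array. Fbn2 fell by 0.23 on the log2 scale (SE 0.054, limma adjusted p = 0.0380). Leaving out any 1 of the 6 arrays ended the call; the adjusted p was then lowest, 0.0677, without 4OHT replicate 3 and highest, 0.108, when vehicle replicate 1 was dropped. It was also lost with the arrays centred on their medians (adjusted p = 0.0540).

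Emilin1, whose product also restrains the maturation of TGF-beta, differed most among the members. Vehicle wells had a log2 expression of 10.34, 10.28 and 10.28, and 4OHT wells of 9.87, 9.82 and 9.96. The gap between the lowest vehicle and the highest 4OHT array exceeded the range within either group. Emilin1 fell by 0.42 on the log2 scale (SE 0.053, 95% interval -0.55 to -0.29, limma adjusted p = 0.00439), and the adjusted p lay between 0.00688 and 0.0232 with any 1 array left out.

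The fibulins are glycoproteins that bind elastin, fibrillin and basement membrane, and the measured ones did not move as a group. Fbln5, which tethers tropoelastin to microfibrils and cells, had a log2 expression of 13.63, 13.66 and 13.65 in vehicle wells and 13.51, 13.53 and 13.51 in 4OHT wells. The groups were tight and separate, with SDs of 0.012 and 0.0095. The log2 fold change of -0.13 (SE 0.039) did not pass (limma adjusted p = 0.0858), but passed with a trended and robust eBayes (adjusted p = 0.000841) and among genes above the median level (adjusted p = 0.0163).

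Fbln1, a fibulin of elastic fibres and basement membranes, stood on the other side. It had a log2 expression of 10.02, 9.97 and 9.91 in vehicle wells and 10.23, 10.27 and 10.09 in 4OHT wells, with all 4OHT arrays above all vehicle arrays. The log2 fold change of 0.23 (SE 0.062, 1.17-fold) did not pass (limma adjusted p = 0.0660). It passed without 4OHT replicate 3 (adjusted p = 0.0351), with a trended and robust eBayes (0.0114), with array weights (0.0400) and among genes above the median level (0.0159). Without any other array it did not pass (limma adjusted p up to 0.193).

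Fbln2, which binds fibrillin and tropoelastin, had a log2 expression of 13.78, 13.75 and 13.76 in vehicle wells and 13.75, 13.76 and 13.72 in 4OHT wells. The groups overlapped, and the 95% interval of the log2 fold change ran from -0.12 to 0.08 (limma adjusted p = 0.823). Within an array, the log2 difference of Fbln1 minus Fbln2 was -3.79 ± 0.05 for vehicle and -3.55 ± 0.07 for 4OHT (SD, n = 3). That is a shift of 0.24 toward Fbln1, with an exact two-sided permutation p of 0.1, the smallest that 3 arrays against 3 can give. 4 such pairs had been planned, and this was the only 1 with both genes analysed.

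Efemp1, which encodes fibulin-3, had a log2 expression from 12.82 to 12.84 in vehicle wells and from 12.83 to 12.85 in 4OHT wells. The log2 fold change was 0.01 (95% interval -0.08 to 0.11, limma adjusted p = 0.854). Mfap4, a microfibril glycoprotein that binds elastin and fibrillin, ranged from 11.91 to 11.94 in vehicle wells and from 11.89 to 11.93 in 4OHT wells. Its log2 fold change was -0.01 (95% interval -0.10 to 0.09, limma adjusted p = 0.928). For both genes the groups overlapped, and the intervals leave room for a change of 7.80% in Efemp1 and of -6.98% in Mfap4. In 5 of the 8 members the groups did not overlap, 4 lower and 1 higher, where 32.7% of all genes had groups that did not overlap, 17.8% lower and 15.0% higher.

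**Figure D2:**
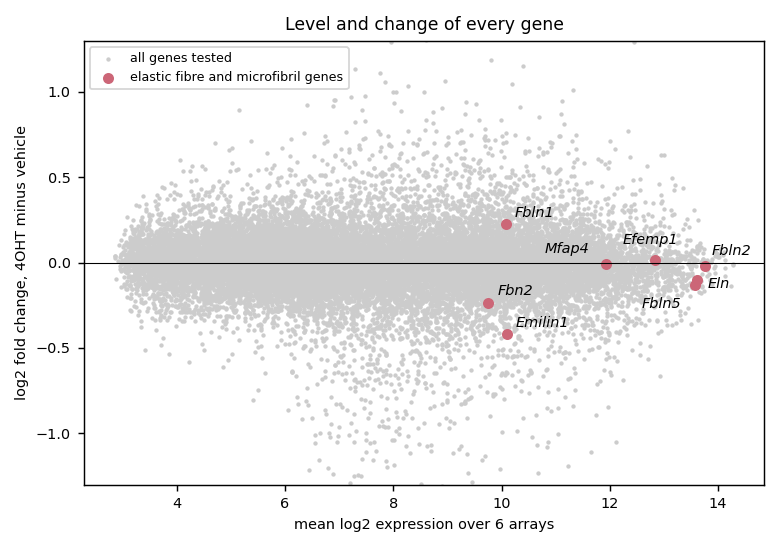
Log2 fold change (4OHT minus vehicle) against mean log2 expression over 6 arrays for all genes tested (grey) and the 8 elastic fibre and microfibril genes (red); 38 genes lie outside the vertical range. Fbn2, Fbln1 and Emilin1, at mean levels from 9.75 to 10.09, lie farther from 0 than the 5 members at 11.92 to 13.75.

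The probe sets of the members differed in signal as well as in change, which need not mean that the genes differed in level. Fbln2, Eln and Fbln5 gave some of the brightest signals on the arrays, with 0.153%, 0.293% and 0.316% of genes above them. The 3 members with a mean log2 expression under 11 had absolute log2 fold changes of 0.23 to 0.42, and the 5 at 11 and above had 0.01 to 0.13; this split was chosen after the values were seen and carries no test. Of all genes with a mean from 9 to 11, 20.1% were called, of those from 11 to 13, 20.6%, and of those at 13 and above, 13.8%. The highest value of any gene lay between 14.26 and 14.32 in each array; whether signals are compressed near that end was not tested.

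The genes whose 6 array values, centred on their own mean, lay closest to those of Emilin1 were Tmem200b, Sass6 and Agtr1a, out of 19385 candidates. Their root mean square distances were 0.018, 0.024 and 0.024 on the log2 scale. Agtr1a, an angiotensin II receptor gene, had 11.49, 11.45 and 11.47 in vehicle wells and 11.06, 11.04 and 11.17 in 4OHT wells. In all 3 genes, as in Emilin1, 4OHT replicate 3 was the highest of the 4OHT arrays. That likeness follows from how the genes were chosen and is not a separate result.

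**Figure D3:**
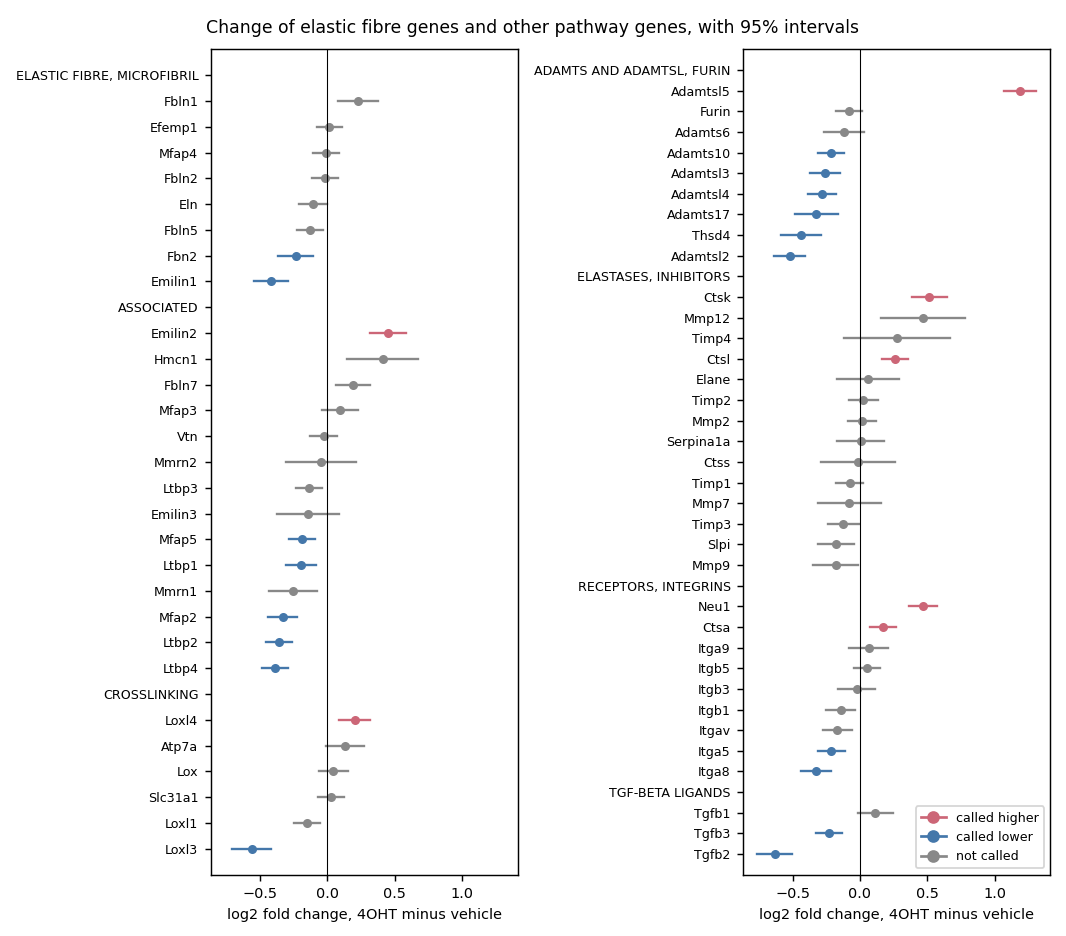
Log2 fold change (4OHT minus vehicle, points) with its 95% interval (lines) for the 8 elastic fibre and microfibril genes and 55 further genes of the pathway, sorted within each list. Adamtsl5 stands alone at 1.19, while the other called ADAMTS and ADAMTSL genes, and most called microfibril-associated genes, lie below 0.

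Of 14 measured genes for other proteins associated with microfibrils and elastic fibres, 5 fell, 1 rose and 8 did not pass, where 6.62% of all genes fell and 5.38% rose. The median log2 fold change of the list was -0.14. Ltbp4, a latent TGF-beta binding protein needed for elastic fibre assembly in the lung, had 11.85, 11.81 and 11.85 in vehicle wells and 11.46, 11.44 and 11.44 in 4OHT wells. It fell by 0.39 on the log2 scale (SE 0.041, limma adjusted p = 0.00196). Ltbp2, a relative that binds fibrillin and fibulin-5, fell by 0.36 (limma adjusted p = 0.00279), from 13.68, 13.71 and 13.66 to 13.34, 13.30 and 13.32. Mfap2, a small microfibril glycoprotein, fell by 0.33 (limma adjusted p = 0.00590), from 11.57, 11.52 and 11.48 to 11.17, 11.22 and 11.19. For all 3 genes the arrays of the groups stood well apart. With any 1 array left out, 3 genes of the list fell, and without 4OHT replicate 3 Hmcn1, a large matrix protein gene of the fibulin family, also rose (adjusted p = 0.00948). The 2 falls lost, named after their values were seen, were those of Ltbp1, another latent TGF-beta binding protein (adjusted p = 0.0412, and from 0.0716 to 0.131 without an array), and Mfap5, the partner of Mfap2 (adjusted p = 0.0291, and from 0.0561 to 0.103).

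Emilin2, a relative of Emilin1, went the other way. It had 9.19, 9.03 and 9.17 in vehicle wells and 9.54, 9.59 and 9.61 in 4OHT wells, and rose by 0.45 on the log2 scale (SE 0.057, limma adjusted p = 0.00443). Both EMILIN calls held without any of the 6 arrays.

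The secreted ADAMTS proteases and the ADAMTS-like proteins are known to bind fibrillin and shape microfibril assembly. Of 9 measured genes, 6 fell and 1 rose, where 6.62% of all genes fell and 5.38% rose. The list includes Furin, a protease that trims the fibrillin precursor, and had a median log2 fold change of -0.26. Adamtsl2, whose product binds fibrillin and latent TGF-beta binding protein, had 11.41, 11.46 and 11.44 in vehicle wells and 10.88, 10.88 and 10.98 in 4OHT wells and fell by 0.52 on the log2 scale (SE 0.048, limma adjusted p = 0.00133). Thsd4, also known as ADAMTSL6, which promotes fibrillin assembly, fell by 0.44 (limma adjusted p = 0.00608), from 8.50, 8.40 and 8.53 to 8.03, 8.12 and 7.96. Adamtsl4, which supports fibrillin microfibrils in the eye, fell by 0.28 (limma adjusted p = 0.00900), from 9.18, 9.12 and 9.11 to 8.83, 8.86 and 8.86. In each of them every 4OHT array lay below every vehicle array, as in 17.8% of all genes. The number that fell stayed at 6 without 4OHT replicate 3, was 3 without either of vehicle replicates 1 and 2, and was 4 without vehicle replicate 3, 4OHT replicate 1 or 4OHT replicate 2.

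Adamtsl5, an ADAMTS-like gene whose product also binds fibrillin, was the exception. It had 9.19, 9.20 and 9.23 in vehicle wells and 10.32, 10.45 and 10.42 in 4OHT wells, so that the lowest 4OHT array lay 1.09 above the highest vehicle array. It rose 2.28-fold (log2 fold change 1.19, SE 0.050, limma adjusted p = 0.000164), the largest difference of either sign among the members and pathway genes measured.

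**Figure D4:**
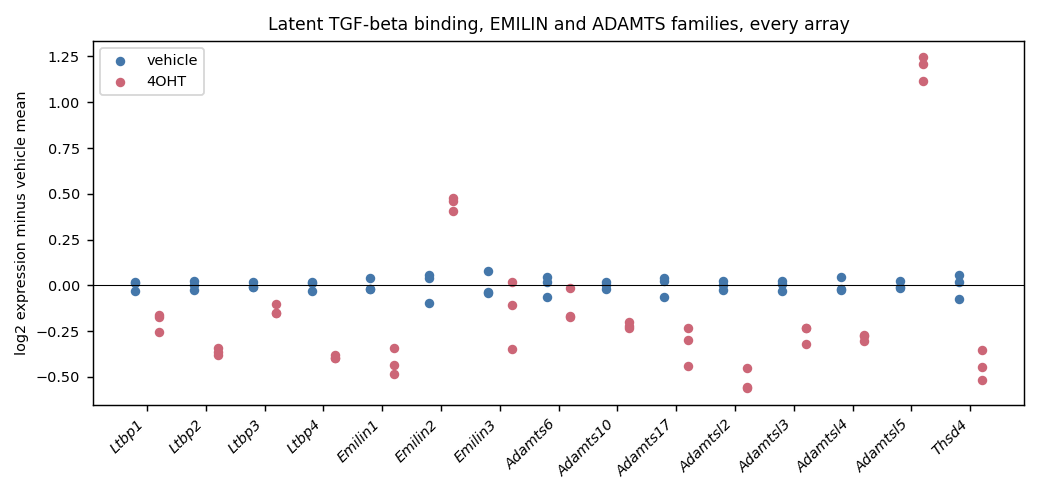
Log2 expression of each array minus the vehicle mean of that gene, for the latent TGF-beta binding proteins, the EMILINs and the ADAMTS and ADAMTSL genes (vehicle blue, 4OHT red, 3 arrays each). Emilin2 and Adamtsl5 lie above 0 in all 4OHT arrays, Emilin3 lies on both sides, and the others lie below.

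Of 6 measured genes of crosslinking and copper supply, 1 fell, 1 rose and 4 did not pass, where 6.62% of all genes fell and 5.38% rose. Their median log2 fold change was 0.04. Loxl3, a lysyl oxidase relative, had 12.25, 12.18 and 12.23 in vehicle wells and 11.65, 11.56 and 11.76 in 4OHT wells, a fall of 0.56 on the log2 scale (SE 0.061, limma adjusted p = 0.00233). Loxl4, another, rose by 0.20 (limma adjusted p = 0.0394), from 10.01, 10.07 and 10.05 to 10.26, 10.18 and 10.29, but dropping any 1 array ended the call (adjusted p from 0.0616 to 0.120). Lox, the founding enzyme of the family, and Loxl1, the one tied most closely to elastin, were looked at after their values were seen, since neither was called. Lox had a log2 fold change of 0.04 (limma adjusted p = 0.593) and Loxl1 of -0.15 (limma adjusted p = 0.0613). Loxl1 passed with a trended and robust eBayes (adjusted p = 0.000648), among genes above the median level (0.0106) and with array weights (0.0496). It did not pass with any 1 array left out (limma adjusted p from 0.0961 to 0.189).

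Among enzymes that cut elastin and their inhibitors, 2 of 14 measured genes rose, where 5.38% of all genes rose and 6.62% fell. The count that fell was 0 by limma, while 3 were lower at an unadjusted p under 0.05 and 2 with a trended and robust eBayes. Their median log2 fold change was 0.01. Both that rose encode elastin-cutting cathepsins of the lysosome. Ctsk rose 1.43-fold (limma adjusted p = 0.00224), from 10.25, 10.22 and 10.30 to 10.79, 10.83 and 10.69. Ctsl rose 1.20-fold (limma adjusted p = 0.0103), from 13.29, 13.31 and 13.29 to 13.58, 13.52 and 13.56. In both, all 4OHT arrays lay above all vehicle arrays, as in 15.0% of all genes.

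The elastin receptor complex joins the sialidase Neu1 and the protective protein Ctsa to a splice form of beta-galactosidase, which was not analysed here, and both enzymes are also residents of the lysosome. Neu1 rose 1.38-fold (limma adjusted p = 0.00137), from 9.95, 10.00 and 10.02 to 10.43, 10.46 and 10.49. Ctsa rose 1.13-fold (limma adjusted p = 0.0376), from 13.07, 13.06 and 13.10 to 13.26, 13.24 and 13.25, a call that ended when any 1 array was dropped (adjusted p from 0.0650 to 0.125). Both integrin subunits that were called fell. Itga8, whose integrin binds RGD sites of matrix proteins and marks myofibroblasts, fell by 0.33 on the log2 scale (limma adjusted p = 0.00677), from 11.69, 11.73 and 11.63 to 11.34, 11.39 and 11.33. Itga5, the fibronectin receptor subunit, fell by 0.21 (limma adjusted p = 0.0205), a call that ended on dropping any of the vehicle arrays or either of 4OHT replicates 1 and 2 (adjusted p from 0.0568 to 0.0759). In this list of 9 measured genes 2 rose and 2 fell, where 5.38% of all genes rose and 6.62% fell. The median log2 fold change of the list was -0.02.

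2 of the 3 TGF-beta ligand genes, whose products microfibrils store in latent form, fell, where 6.62% of all genes fell. Tgfb2 was 1.55-fold lower (limma adjusted p = 0.00105), with 12.27, 12.22 and 12.16 in vehicle wells and 11.63, 11.51 and 11.61 in 4OHT wells. Tgfb3 was 1.17-fold lower (limma adjusted p = 0.0153), a call that ended on dropping either of vehicle replicates 1 and 2 or either of 4OHT replicates 1 and 2 (adjusted p from 0.0505 to 0.0691). Over these 6 lists together the 55 genes had a median log2 fold change of -0.08.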

How the data were processed

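Total RNA of 6 wells was measured on single-colour Affymetrix arrays. The authors deposited log2 expression per probe set; per the submitters' processing notes they used oligo, RMA and limma, with no versions given. RMA subtracts background, makes array distributions equal and summarizes probes, so a shift of all genes would be removed. The build behind the array annotation is not stated in the labels; the printed promoters come from a RefSeq table of GRCm38.p6. The platform annotation gave 1 gene symbol to 23521 of 41345 probe sets; the probe set with the highest mean represented each of 22180 genes, with no filter on dim genes. Vehicle (n = 3) and 4OHT (n = 3) were compared with limma 3.58.1 in R 4.3.3 (lmFit, eBayes, two-sided, 6.70 degrees of freedom). The number of arrays limits the precision. Members and lists were chosen with earlier results of these data known; the motifs and the split by level were chosen after seeing the data. From each pathway list the called genes were named, at most 4 of smallest p. Same-numbered wells did not deviate together (r of 0.06, -0.02 and 0.04), so numbers were not taken as pairs. Alternatives were a replicate block, median centring, a second quantile normalization, array weights, a trended and robust eBayes, averaging probe sets, testing only genes above the median level, a fit over all probe sets, a threshold of 0.01 and leaving out each array.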

Additional observations from a re-analysis of the deposited data

How the results depend on the processing

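Emilin1 was lower, and called, in all 15 alternatives run. The number of elastic fibre genes called lower was 2, and became 1 with the replicate number as a block, with arrays centred on their medians, at an adjusted p under 0.01 and without each of the 6 arrays (lowest 1, highest 1), 3 among genes above the median level and 4 with a trended and robust eBayes. The number called higher was 0, and became 1 among genes above the median level, with a trended and robust eBayes and with array weights, and ranged from 0 to 1 without each array; the gene was Fbln1. The number of other pathway genes called lower was 16, and became 9 with the replicate block and 9 at an adjusted p under 0.01, and ranged from 9 to 14 without each array; 7 were higher, 4 at an adjusted p under 0.01. A trended and robust eBayes added pathway calls, with Ltbp3, Loxl1, Timp1, Timp3, Itgav and Itgb1 lower and Fbln7, Hmcn1 and Mmp12 higher. Over all genes 2662 were called, 1568 with the replicate block and 4123 with a trended and robust eBayes. Same-numbered wells did not deviate together, so the block pairs samples by number only. The log2 shift of Fbln1 minus Fbln2 stayed between 0.22 and 0.28 in the alternatives that could change it. The planned differences Eln minus Fbn1, Fbn1 minus Fbn2 and Fbln5 minus Efemp2 were not run, since a gene of each was not analysed here. The cause of these changes was not tested.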
